A study of Mus musculus with 42 samples.

Results

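The change in the hepatic response to corticosterone (CORT) between acute and chronic treatment was measured as a difference of 2 effects. Each effect is the log2 ratio of CORT to vehicle mice of the same duration, and the acute effect was subtracted from the chronic one. The mice were male C57B6/J, and mRNA of snap-frozen liver was sequenced as stranded, mRNA-enriched libraries. The comparison rests on 6 acute vehicle, 6 acute CORT, 6 chronic vehicle and 6 chronic CORT mice, 24 of the 42 libraries of the series. RNA came from a Qiagen RNeasy kit in the acute arm and from a Macherey-Nagel NucleoSpin kit in the chronic arm, so kit and duration cannot be told apart and no level is compared between the arms. The sources used here do not state doses, routes, days of treatment, ages or the time of day of collection.

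Corticosterone is the main glucocorticoid of mice. It binds the glucocorticoid receptor, a nuclear receptor that enters the nucleus with its ligand, binds DNA at glucocorticoid response elements and raises or lowers transcription. In liver the receptor is known for control of glucose, amino acid and lipid metabolism, and for damping of inflammatory genes. Mouse liver also differs strongly between the sexes, largely through the pattern of growth hormone release, which keeps male-biased genes such as the major urinary proteins high and female-biased cytochrome P450 genes low in males.

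Gene counts per library ran from 18905898 to 20458753 in the acute and from 15381724 to 19581723 in the chronic mice. Multiply aligned reads took 9.34 to 11.8% of each acute library and 18.6 to 22.1% of each chronic one. Hepatocyte markers summed to at least 94484 CPM (counts scaled to library size) in every mouse. Acute vehicle mouse L19A stood apart on the first principal component of its arm, at -48.2 against -8.03 to 8.84 for the other vehicle mice, and chronic vehicle mouse 11 did so in its arm, at 9.95 against 27.2 to 33.4. Without both of them 1282 genes, in place of 873, differed between durations.

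Within the chronic vehicle group, mice 10 to 12 and mice 13 to 15 differed in clock and stress-response genes. The clock output gene Dbp ran from 70 to 142 CPM in mice 10 to 12 and from 1.74 to 6.3 in mice 13 to 15, while the clock gene Arntl ran from 4.48 to 10.8 and from 20.9 to 26.4. The immediate-early gene Egr1 ran from 57.3 to 110 and from 2.43 to 4.53, and the glucocorticoid target Fkbp5 from 42.5 to 66 and from 9.94 to 15.2. Glucocorticoid-induced genes did not share 1 direction. Zbtb16, at 43.7 to 75.7 and 10.4 to 15, was also higher in mice 10 to 12. Tsc22d3, at 61.3 to 90.4 and 171 to 231, and Cdkn1a, at 3.1 to 3.44 and 7.87 to 12.8, were lower in them. In each of these genes the 2 sets of 3 mice did not overlap. The genes were chosen with earlier results of these data known. The share of all genes that part the sets was not counted, so how far the split goes beyond them is not shown. Usp18, at 9.66 to 14.8 and 9.34 to 12.2 CPM, and Cyp17a1, at 25.5 to 60.5 and 19.6 to 41, overlapped between the sets. Chronic CORT mice 1 to 3 and 25 to 27 also did not overlap in Dbp, at 7.62 to 39.8 and 42.6 to 73.9 CPM, with the lowest in mouse 1. The same held for the clock genes Per3, at 2.89 to 10.6 and 18.6 to 25.7, and Nr1d1, at 63.8 to 87.9 and 90.9 to 111. Cdkn1a, at 9.11 to 43.4 and 4.78 to 8.41, did not overlap either and was higher in mice 1 to 3. Fkbp5, at 165 to 269 and 221 to 314, and Egr1, at 0.63 to 1.42 and 0.795 to 1.81, overlapped between these sets. The CORT mice were left out only 1 at a time, not as sets. The labels do not say that the numbers mark a batch, and the cause was not tested. Results were therefore recomputed without mice 10 to 12 and without mice 13 to 15, a choice made after seeing the data.

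**Figure D1:**
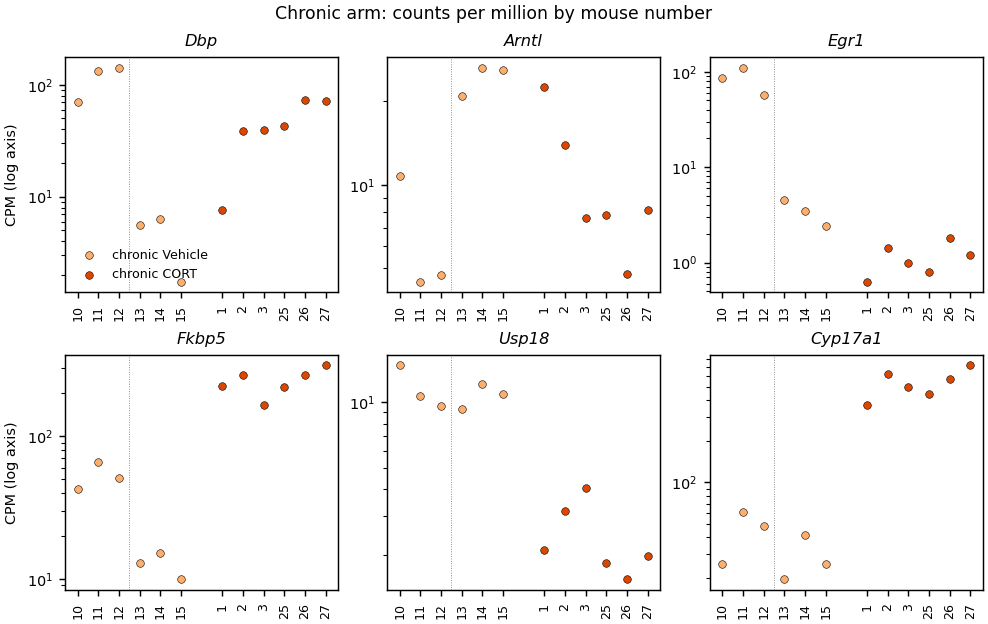
Level of 6 genes in each chronic mouse, in CPM on a log axis, ordered by the mouse number of the labels. The dotted line parts vehicle mice 10 to 12 from 13 to 15. Dbp, Egr1 and Fkbp5 are higher and Arntl is lower in mice 10 to 12, while Usp18 and Cyp17a1 overlap between the sets.

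Corticosterone moved many more genes after chronic than after acute treatment. A gene was called when its Benjamini-Hochberg adjusted p in edgeR's quasi-likelihood test was under 0.05, over the 14138 genes tested. The acute effect was called for 217 genes (1.53%), 128 higher (0.905%) and 89 lower (0.63%). The chronic effect was called for 2961 (20.9%), 1549 higher (11%) and 1412 lower (9.99%). The median standard error was 0.139 log2 units for the acute and 0.14 for the chronic effect. The fit shares its estimate of the spread between the arms, so these values do not compare the precision of the arms. With each arm fitted alone, 222 acute and 2401 chronic effects were called. Of the 217 acute calls of the shared fit, 91 were also chronic calls. This is 41.9% of the acute and 3.07% of the chronic list, and 82 of the 91 had the same sign.

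The difference itself was called for 873 genes (6.17% of those tested), 528 with a chronic effect above the acute one (3.73%) and 345 below it (2.44%). With an unadjusted p under 0.05 there were 2895. Without chronic vehicle mice 10 to 12 the difference was called for 1199 genes, 657 of them among the 873, and without mice 13 to 15 for 665 genes, 450 of them among the 873. A further 2121 genes were called in the chronic arm only, but their difference was not called, and 1657 of them had an acute effect of the same sign. For these the data do not show that the response depends on duration. At the edge of the threshold, Pdk4 lay just inside (difference -1.77 ± 0.56 SE, adjusted p = 0.0498) and Smoc2 just outside (-1.44 ± 0.46, 0.0502).

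By the calls of both arms, the 873 genes fell into 5 classes. Gained genes, called in the chronic arm but not in the acute arm, numbered 749 (5.3% of genes tested), of which 449 were higher and 300 lower with chronic CORT. Their median effect size was 0.16 log2 units after acute and 0.73 after chronic treatment, and 497 had effects of opposite sign. Lost genes, called only in the acute arm, numbered 32 (0.226%), 11 of them higher and 21 lower with acute CORT. Their median effect size was 0.60 log2 units after acute and 0.14 after chronic treatment, and 31 had effects of opposite sign. Reversed genes, called in both arms with opposite signs, numbered 9 (0.0637%). Another 13 (0.092%) were called in both arms with a larger chronic effect of the same sign, 8 higher and 5 lower. No gene called in both arms had a called difference with a smaller chronic effect of the same sign. In 70 genes (0.495%) neither effect was called alone while their difference was. Besides these, 69 genes (0.488%) were called in both arms with the same sign and no called difference.

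**Figure D2:**
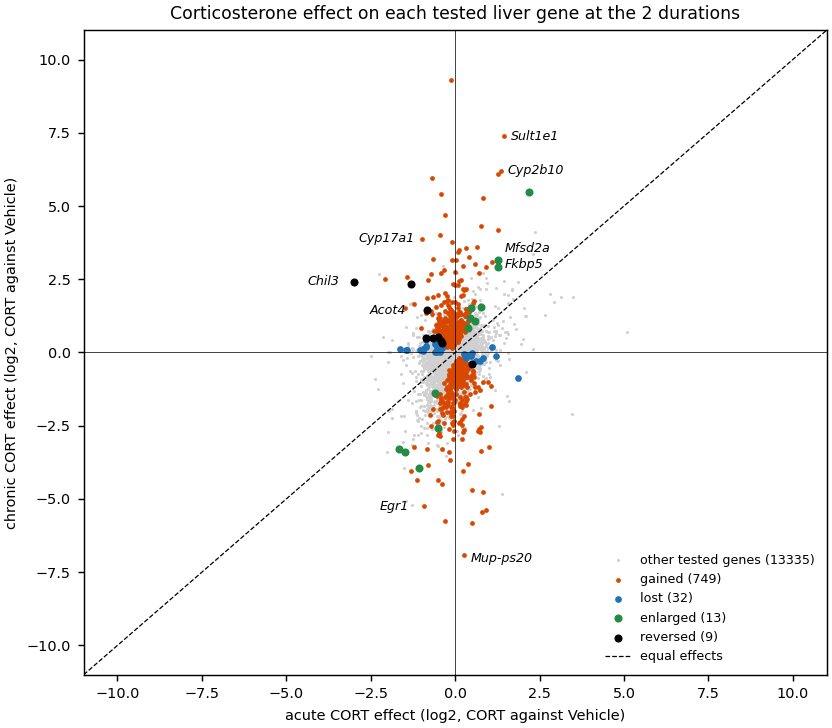
Acute CORT effect (horizontal axis, log2) against chronic CORT effect (vertical axis, log2) of each of the 14138 genes tested, with colours for the gained, lost, enlarged and reversed genes. The dashed line marks equal effects. The 749 gained genes lie along the vertical axis, with Mup-ps20 at the bottom.

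Several genes with the largest differences are members of families of near-identical copies. The stretches before the annotated starts of 4 of them are shown because they make plain how alike the copies are. They are the parts upstream of both annotations of RefSeq's 250-base windows (GRCm38.p6, minus strand, written 5′ to 3′), with capitals at the bases that differ within each pair and gaps left unmarked. Mup15 (chr4:61439744-61439954) and Mup18 (chr4:61674137-61674344) were identical at 197 of 206 aligned bases, and Cyp2c40 (chr19:39812815-39813064) and Cyp2c69 (chr19:39886800-39887019) at 217 of 220.
Mup15: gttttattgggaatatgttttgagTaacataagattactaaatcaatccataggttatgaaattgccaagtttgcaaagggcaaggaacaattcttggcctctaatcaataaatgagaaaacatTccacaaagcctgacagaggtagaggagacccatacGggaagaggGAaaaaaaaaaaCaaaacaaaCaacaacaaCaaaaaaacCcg
Mup18: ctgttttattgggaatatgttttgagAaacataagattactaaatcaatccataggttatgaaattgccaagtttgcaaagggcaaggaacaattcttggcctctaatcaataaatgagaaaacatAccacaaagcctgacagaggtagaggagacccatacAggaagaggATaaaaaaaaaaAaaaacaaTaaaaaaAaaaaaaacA
Cyp2c40: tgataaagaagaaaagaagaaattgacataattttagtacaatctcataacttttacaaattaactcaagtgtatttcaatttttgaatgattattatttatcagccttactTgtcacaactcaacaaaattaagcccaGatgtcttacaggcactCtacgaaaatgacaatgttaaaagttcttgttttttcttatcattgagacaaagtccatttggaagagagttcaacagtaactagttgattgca
Cyp2c69: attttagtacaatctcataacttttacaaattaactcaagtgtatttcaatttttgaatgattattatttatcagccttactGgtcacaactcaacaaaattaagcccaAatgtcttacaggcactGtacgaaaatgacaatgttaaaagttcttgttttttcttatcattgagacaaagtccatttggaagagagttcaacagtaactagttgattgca
The longest transcripts repeat this likeness. All 50-base stretches of Mup15 (100%) also occur in another gene, as do 89.6% of those of Mup18, 85.4% of Mup12, 78.1% of Mup17, 72.1% of Cyp2c40 and 54.8% of Cyp2c69. Reads of such copies can be counted for the wrong copy or dropped, so the values of single members are uncertain. The same limit holds for other genes named below with over 10% of stretches shared. These are Selenbp2 (52%), Ugt2b38 (37.4%), Npm3 (31.9%), Chil3 (29.4%), Acot1 (18.8%) and Abcb1a (17%).

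Female-biased liver genes had the largest median difference of the pathway lists, 4.60 log2 units. Of 21 members 13 were tested, and the others were not among the genes that passed the count filter. A gene with few counts elsewhere, such as Sult1e1, can pass that filter through the group where it is high. The count and the median difference are not free of this selection. Of the 13, 8 had a chronic effect above the acute one and none below (3.73% and 2.44% of all genes tested). Their median effect was -0.97 log2 units after acute and 2.67 after chronic CORT, against -0.01 and 0.01 over all genes, and no member was called in the acute arm. Without chronic vehicle mice 10 to 12 the count was 6, and without mice 13 to 15 it was 7.

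Cyp17a1, the steroid 17-alpha-hydroxylase, ran from 19.6 to 60.5 CPM in chronic vehicle mice (median 33.3) and from 367 to 714 in chronic CORT mice (median 529). Acute vehicle mice ran from 12.2 to 120 (median 16.9) and acute CORT mice from 10.5 to 21.6 (median 19.1), with L31A alone at 120. The chronic groups were apart and the acute groups overlapped, and the difference was 4.85 ± 0.62 (adjusted p = 4.3e-06). Cyp2c69 and Cyp2c40, whose upstream stretches are shown above, ran from 0.415 to 2.36 and from 1.13 to 5.73 CPM in chronic vehicle mice, and from 23.5 to 122 and from 59.9 to 224 in chronic CORT mice. Their acute groups overlapped, with effects of -0.68 ± 0.51 and -0.41 ± 0.48. The differences, 6.63 ± 0.85 and 5.81 ± 0.75 (adjusted p = 4.3e-06 and 4.44e-06), are uncertain between the copies. Sult1e1, the estrogen sulfotransferase, had 23 counts over the chronic vehicle mice and 4273 over the chronic CORT mice. With 13 and 35 counts in the acute groups its difference, 5.93 ± 1.73 (adjusted p = 0.0317), was lost without any one of acute vehicle mice L1A, L7A, L25A (adjusted p = 0.124) and L31A, and without chronic vehicle mice 10 to 12 (0.0591). Cyp2a4, A1bg and Cyp2b9 had positive differences of 2.31 to 4.91 that did not pass the test, while Abcd2 fell with chronic CORT by 1.40 log2 units, with a difference of -0.32 that was not called.

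Male-biased liver genes went the other way. Of 17 tested members, 6 had a chronic effect below the acute one and none above (2.44% and 3.73% of all genes tested). The median effect was 0.46 after acute and -0.65 after chronic CORT. The count was 4 both without chronic vehicle mice 10 to 12 and without mice 13 to 15. Mup17, one of the major urinary proteins that carry pheromones in male urine, ran from 69.9 to 401 CPM in chronic vehicle mice (median 173) and from 0.525 to 33 in chronic CORT mice (median 2.94). In the acute arm it ran from 41.2 to 389 (median 178) and from 225 to 749 (median 258). Chronic CORT mice lay below every chronic vehicle mouse, and the acute groups overlapped. The difference was -5.59 ± 1.10 (adjusted p = 0.00147).

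Mup15, Mup18 and Mup12 had differences of -6.23 ± 1.18, -6.29 ± 1.19 and -3.36 ± 0.76, with positive acute effects of 0.69 to 0.92 that were not called. Mup-ps20, a pseudogene of the same cluster on chromosome 4, had 653 counts over the chronic vehicle mice and 5 over the chronic CORT mice, and 443 and 500 in the acute groups. The selenium-binding protein gene Selenbp2 and the fatty acid elongase gene Elovl3 had differences of -2.90 ± 0.65 and -1.83 ± 0.48 (adjusted p = 0.00519 and 0.0166), the second lost without mice 13 to 15 (0.0868). Not every male-biased gene fell. Mup20 rose with chronic CORT by 1.24 log2 units (adjusted p = 0.00013), and the effects of Slco1a1, Cyp4a12b and Gstp1 were within 0.46 of 0 in both arms and not called. Cib3, a calcium-binding protein gene on no list, went from 948 counts to 18 in the chronic arm and from 1293 to 996 in the acute arm, a difference of -5.46 ± 0.91 (adjusted p = 0.000184).

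**Figure D3:**
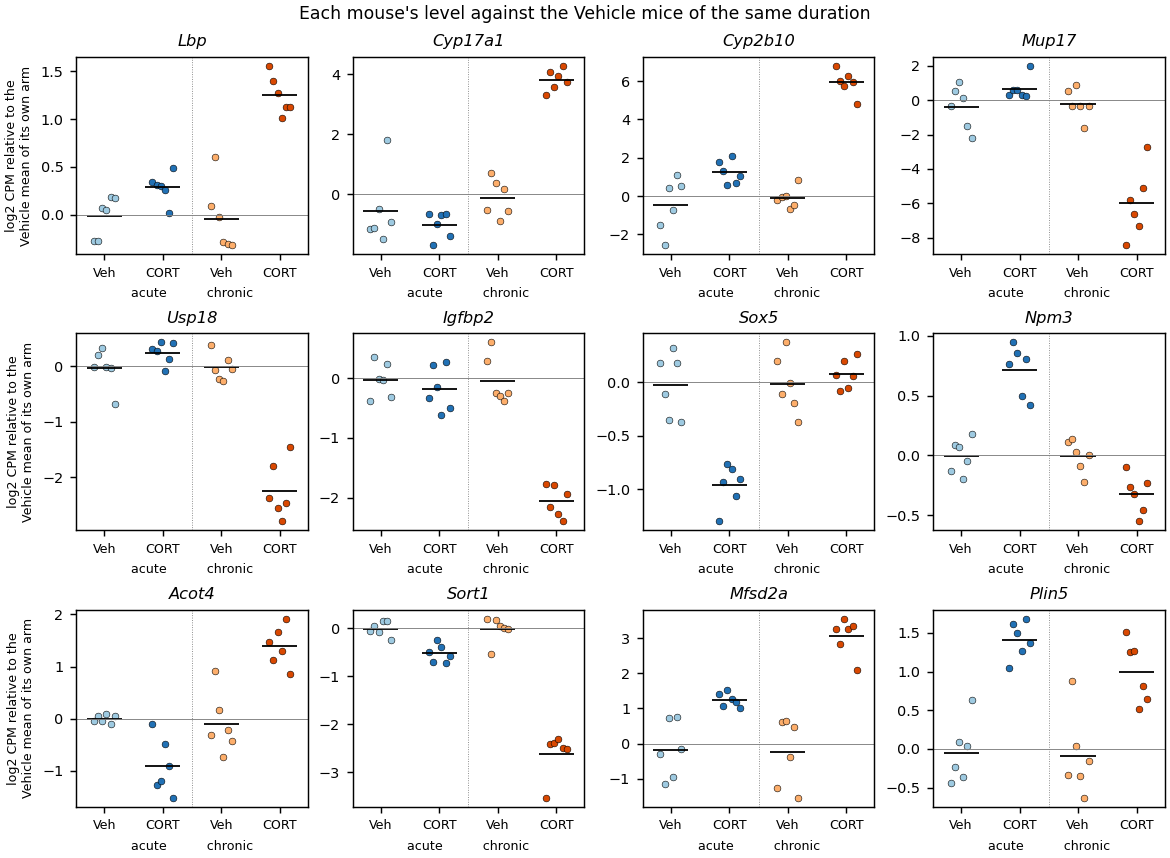
Level of 12 genes in each mouse as log2 CPM (with 0.1 added) relative to the mean of the vehicle mice of the same duration. Each point is 1 mouse, 6 per group, and the horizontal bar is the group mean. In Lbp, Cyp17a1, Mup17, Usp18 and Igfbp2 the CORT and vehicle mice are apart in the chronic arm and overlap in the acute arm, in Sox5 the reverse holds, while CORT mice moved in opposite directions in Acot4 and in the same direction in Plin5.

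Targets of the xenobiotic receptors CAR and PXR, which induce drug-metabolising enzymes, had 19 tested members. Of these, 5 had a chronic effect above the acute one and none below (3.73% and 2.44% of all genes tested). Cyp2b10, the classical CAR target, ran from 0.453 to 1.48 CPM in chronic vehicle and from 24.5 to 97 in chronic CORT mice. Its acute groups, 1.72 to 22.4 and 15.6 to 44.7, overlapped. The acute effect of 1.35 ± 0.48 was not called (adjusted p = 0.169), the chronic effect was 6.21 ± 0.65, and the difference was 4.86 ± 0.80 (adjusted p = 0.000166). Abcb1a, a drug efflux pump, had a difference of 2.54 ± 0.41 (adjusted p = 7.69e-05). Nr1i3, the gene of CAR itself, had one of 1.29 ± 0.35, which was 1.81 without mice 10 to 12 and 0.89, no longer called (0.161), without mice 13 to 15. Without these last mice 2 members of the list were called above and 1 below. Myom3, a muscle structural protein gene on no list, rose in the chronic arm from 44 to 1253 counts, with 70 and 54 in the acute groups and a difference of 5.01 ± 0.64 (adjusted p = 2.84e-06).

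Interferon-stimulated genes, the antiviral programme driven by type I interferon, fell in large number with chronic CORT. Of 22 tested members, 19 were called lower in the chronic arm and none in either direction in the acute arm. The difference was called below 0 for 10 and above 0 for none. Of all genes tested 9.99% were called lower in the chronic arm, and 2.44% had a difference below 0. The median effect was -0.21 after acute and -1.34 after chronic CORT. The count for the difference was 8 without mice 10 to 12 and 6 without mice 13 to 15, and the chronic count 18 and 16.

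Usp18, which removes the ubiquitin-like protein ISG15 and restrains interferon receptor signalling, ran from 9.34 to 14.8 CPM in chronic vehicle mice (median 10.8) and from 1.54 to 4.04 in chronic CORT mice (median 2.04). In the acute arm it ran from 8.06 to 16.4 (median 12.8) and from 12.2 to 17.5 (median 15.9). The chronic groups were apart, the acute ones overlapped, and the difference was -2.44 ± 0.31 (adjusted p = 2.47e-06). Irf7, a transcription factor of the same pathway, fell from 30.2 to 48.8 CPM in chronic vehicle mice to 9.78 to 20.7 in chronic CORT mice, and stayed at 36.7 to 65.7 and 40.5 to 56 in the acute groups. Its difference was -1.46 ± 0.33 (adjusted p = 0.00531). The RNA sensor Ifih1 had a difference of -0.66 ± 0.17 (adjusted p = 0.0121). Ifi44, Dhx58, Oas1a, Ifit3, Xaf1, Ifit2 and Isg15 made up the rest of the 10, with differences of -0.93 to -1.77. The chronic effects of Mx1 (-1.83) and Rsad2 (-1.62) were called but not their differences, and Stat2 was called in neither arm.

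Interferon-inducible GTPases and antigen presentation genes showed the same direction with fewer calls. Chronic CORT lowered 12 of 20 tested members (9.99% of all genes tested) and raised none, acute CORT called none, and the difference was called below 0 for 3. Gbp3, a guanylate-binding protein gene, had a difference of -1.78 ± 0.49 (adjusted p = 0.0223), and the class II genes H2-Aa and H2-Eb1 of -2.29 ± 0.69 and -2.30 ± 0.72 (0.04 and 0.0473). The class II calls were lost in 21 and 23 of 36 alternatives, and none of the 3 calls was left without mice 13 to 15. The 12 chronic falls became 8 without mice 10 to 12 and 6 without mice 13 to 15.

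Markers of immune cells moved with these genes. All 9 B cell markers fell with chronic CORT and 4 of them with acute CORT, and the difference was called below 0 for 4. Of all genes tested 9.99% fell with chronic and 0.63% with acute CORT, and 2.44% had a difference below 0. Their summed level ran from 16.3 to 89.7 CPM in chronic vehicle and from 3.68 to 16 in chronic CORT mice, and from 16.1 to 31 and 8.88 to 20.4 in the acute arm. Ighd, Cd79b and Ighm were among the 4, with differences of -1.63 to -2.32, and none of the list was called without mice 13 to 15. The Ighm difference, -2.32 ± 0.68 (adjusted p = 0.0327), was -2.90 without mice 10 to 12 and -1.32 (0.316) without mice 13 to 15. Ighm was also lost without 1 of 7 single mice, among them chronic vehicle 13 and chronic CORT 1, 25 and 27, and acute mice L31A, L2A and L14A. Of 5 tested T and NK cell markers 4 fell with chronic CORT, and Cd4 and Il2rb had called differences of -1.88 and -1.67. Their summed level ran from 3.99 to 7.72 CPM in chronic vehicle and from 1.47 to 2.18 in chronic CORT mice, and from 4.78 to 6.85 and 4.53 to 6.83 in the acute arm. Of 11 Kupffer cell markers 5 were called lower with chronic CORT, and none had a called difference, although their median difference was -0.71. The 5 chronic falls became 1 without mice 10 to 12, 0 without mice 13 to 15 and 8 without L19A and mouse 11. Their summed level ran from 148 to 471 and from 132 to 233 CPM in the chronic arm, and from 264 to 361 and 262 to 369 in the acute arm. No tested marker of these lists was at 0 in every mouse of a group. Cd3e, Cd3d, Gzma, Klrb1c and Ncr1 did not pass the count filter and were not looked at. Fewer immune cells and less RNA per cell cannot be told apart in whole liver, and the part of these markers in the interferon and class II results was not tested.

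Genes of intermediary metabolism differed between durations in smaller numbers. Of 24 tested cholesterol synthesis and uptake genes, 15 fell and 1 rose with chronic CORT (9.99% and 11% of all genes tested). None was called with acute CORT, and the difference was called below 0 for 3 (2.44% of all genes tested). Sqle, squalene epoxidase, ran from 35.7 to 122 CPM in chronic vehicle mice (median 82.9) and from 15.1 to 32.5 in chronic CORT mice (median 27.3). Its acute groups, 46.7 to 125 and 73.1 to 121, overlapped, and the difference was -1.82 ± 0.38 (adjusted p = 0.00261). Sc5d and Dhcr7, of the last steps of the pathway, had differences of -1.0 ± 0.21 and -0.97 ± 0.27 (adjusted p = 0.00276 and 0.0226). Neither was called without mice 13 to 15 (0.0712 and 0.278), when 1 member of the list was left with a called difference and 4 with a called chronic fall, while 8 had a called difference without mice 10 to 12. The Dhcr7 call was also lost without chronic vehicle mouse 13 or 14 or acute CORT mouse L2A.

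Fatty acid oxidation genes had 2 of 22 differences called above 0 and 1 below, against 3.73% and 2.44% of all genes tested. There were 6 above and 1 below without mice 10 to 12, without mice 13 to 15 there were 1 and 0, and without L19A and mouse 11 there were 6 and 0. The fatty acid omega-hydroxylase gene Cyp4a14 ran from 13.2 to 192 CPM in chronic vehicle mice (median 23.3) and from 433 to 2625 in chronic CORT mice (median 682), with the highest value in mouse 1. Acute vehicle and CORT mice, at 217 to 491 and 110 to 408, overlapped. The difference was 4.46 ± 0.80 (adjusted p = 0.000438). Acot1, an acyl-CoA thioesterase, had a difference of 1.93 ± 0.47 (adjusted p = 0.00906), at 2.76 without mice 10 to 12 and 1.39 (0.101) without mice 13 to 15. Pdk4, the kinase that holds back pyruvate oxidation, was the member below 0 and was called in 11 of 36 alternatives.

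Urea cycle and bile acid genes differed by less. The counts of this paragraph are to be read against the 3.73% of all genes tested with a difference called above 0. Asl (argininosuccinate lyase) and Arg1 (arginase) ran from 280 to 442 and from 1111 to 1659 CPM in chronic vehicle mice, and from 560 to 751 and from 1776 to 2431 in chronic CORT mice. Their acute groups overlapped, and the differences were 0.64 ± 0.15 and 0.58 ± 0.14 (adjusted p = 0.00665 and 0.00792), the only 2 of 27 amino acid genes. Akr1d1, a steroid 5-beta-reductase, and Nr1h4, the bile acid receptor FXR, had differences of 0.79 ± 0.20 and 0.57 ± 0.15 (0.0112 and 0.0178), the only 2 of 16 bile acid genes. These 4 calls were lost without mice 13 to 15, at adjusted p of 0.0525 to 0.125. Among acute phase proteins Lbp and Cp had differences of 0.99 ± 0.17 and 0.75 ± 0.14 (0.000265 and 0.000746), which held in every alternative, and the other 20 were not called. The cyclin gene Ccnd1 had one of -1.96 ± 0.45 (0.00604).

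Classical glucocorticoid-induced genes did not share 1 pattern over time. Of 26 tested, 5 rose with acute CORT and 12 with chronic CORT (0.905% and 11% of all genes tested), with 1 chronic fall. The median effect was 0.50 after acute and 0.53 after chronic CORT. Over all genes tested 3.73% had a difference called above 0 and 2.44% below it. The difference was called above 0 for 3, Fkbp5, Cebpd and Sult1e1, and below 0 for Pdk4. Without mice 10 to 12 the counts were 1 and 1, and without mice 13 to 15 they were 3 and 2. Chronic rises numbered 15 without mice 10 to 12 and 5 without mice 13 to 15, against 6 acute rises in both cases.

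Fkbp5, a co-chaperone that lowers the receptor's affinity for its ligand, ran from 9.94 to 66 CPM in chronic vehicle mice (median 28.9) and from 165 to 314 in chronic CORT mice (median 246). In the acute arm vehicle mice ran from 32.6 to 149 (median 72.1) and CORT mice from 173 to 236 (median 211). CORT and vehicle mice were apart in both arms. The effects were 1.26 ± 0.32 and 2.91 ± 0.34, and the difference was 1.65 ± 0.45 (adjusted p = 0.0216). It was 3.03 without mice 10 to 12, but 0.94 and not called (0.126) without mice 13 to 15, and it was not called (0.09) in a fit of the 4 groups alone. The transcription factor gene Cebpd had a difference of 1.02 ± 0.28 (adjusted p = 0.0191), at 0.94 and not called (0.0584) without mice 10 to 12, and not called without acute vehicle mouse L1A.

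Zbtb16, Cdkn1a and Plin4 had larger acute than chronic effects, but their differences were not called. Cdkn1a, the cell cycle inhibitor p21, ran from 0.982 to 5.44 CPM in acute vehicle and from 15 to 24 in acute CORT mice, and from 3.1 to 12.8 and 4.78 to 43.4 in the chronic arm. Chronic CORT mice 1 to 3 ran from 9.11 to 43.4 CPM and mice 25 to 27 from 4.78 to 8.41, without overlap. The effects on Cdkn1a were 2.65 ± 0.61 and 1.28 ± 0.58, with a difference of -1.38 ± 0.83 (adjusted p = 0.355). The transcription factor gene Zbtb16 had effects of 1.94 ± 0.42 and 0.30 ± 0.40 and a difference of -1.64 ± 0.57 (0.0813). That difference was -0.11 without mice 10 to 12, and -2.38 and called (0.0032) without mice 13 to 15, as it was without mouse 13 or 14 alone. For Tsc22d3 the difference was -0.21 ± 0.32 (0.756), at -0.74 and 0.61 without the respective mice, and for the receptor gene Nr3c1 it was -0.32 ± 0.15 (0.236).

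Clock genes, 21 tested, had no called difference, no called acute effect and 7 called chronic rises (11% of all genes tested). Without mice 10 to 12 the difference was called above 0 for 9 and below 0 for 1, and without mice 13 to 15 for 1 and none. The chronic calls were 10 rises and 1 fall without mice 10 to 12, with a median chronic effect of 0.74, and 3 rises and 3 falls without mice 13 to 15, with a median of 0.04. Egr1 also depended on these mice. It ran from 0.63 to 1.81 CPM in chronic CORT mice, below all chronic vehicle mice, and its difference was -4.32 ± 1.20 (adjusted p = 0.0249), but -0.65 (0.773) without mice 10 to 12. With limma-voom it was -2.11 and not called (0.334).

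Of 15 growth hormone and IGF-1 axis genes 1 difference was called above 0 and 2 below, and of 18 steroid receptor and metabolism genes 2 above and 1 below. These numbers are to be read against the 3.73% and 2.44% of all genes. The counts were 3 and 2 in the growth hormone list and 3 and 1 in the steroid list without mice 10 to 12, and without mice 13 to 15 they were 0 and 3, and 0 and 1. Igfbp2, an insulin-like growth factor binding protein, ran from 328 to 647 CPM in chronic vehicle mice (median 359) and from 80.8 to 125 in chronic CORT mice (median 103). The acute groups, 419 to 692 and 354 to 658, overlapped, and the difference was -1.87 ± 0.30 (adjusted p = 7.69e-05). Serpina6, which encodes the plasma carrier of corticosterone, ran from 136 to 344 and from 31.7 to 61.4 CPM in the chronic arm, and from 275 to 536 and from 145 to 266 in the acute arm. CORT mice lay below vehicle mice in both, the acute effect of -0.73 ± 0.21 just missed the threshold (0.0649), and the difference was -1.39 ± 0.30 (0.00316). Hsd11b1, the enzyme that regenerates active corticosterone inside cells, had effects of 0.02 ± 0.11 and 0.65 ± 0.11 and a difference of 0.64 ± 0.15 (0.00684), not called without mice 13 to 15 (0.0564).

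Among the 13 genes whose effect grew with its sign kept, Sort1 had the largest fall among those named. Sort1, the sorting receptor sortilin, ran from 19.5 to 32.7 CPM in chronic vehicle mice (median 29) and from 2.36 to 5.63 in chronic CORT mice (median 5.08). In the acute arm it ran from 23.6 to 30.8 (median 27.8) and from 16.9 to 23.6 (median 19.2). CORT mice were below vehicle mice in both arms, with effects of -0.51 ± 0.14 and -2.57 ± 0.15 and a difference of -2.05 ± 0.20 (adjusted p = 5.16e-09). Mfsd2a, a lysophospholipid transporter, rose at both durations, from 7.76 to 29.7 CPM in acute vehicle mice to 35.3 to 50.2 in acute CORT mice, and from 10.5 to 47.9 to 132 to 364 in the chronic arm. The effects were 1.26 ± 0.33 and 3.16 ± 0.35, and the difference was 1.90 ± 0.46 (0.00935). The autophagy gene Trp53inp2 had effects of 0.58 ± 0.11 and 1.08 ± 0.11, and its difference, 0.50 ± 0.15 (0.0424), was lost in 19 of 36 alternatives. Without mice 10 to 12 there were 20 such genes and without mice 13 to 15 there were 7.

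Genes lost with duration had differences with a median size of 0.896 log2 units, against 0.829 for gained genes. Sox5, a transcription factor gene, fell with acute CORT from 12.3 to 20 CPM (median 16.5) to 6.43 to 9.38 (median 8.42). In the chronic arm it ran from 13.2 to 22.3 (median 16.5) and from 16.2 to 20.7 (median 17.9). The acute groups were apart and the chronic ones overlapped, and the difference was 1.06 ± 0.19 (adjusted p = 0.00023). Npm3, a nucleoplasmin chaperone, rose with acute CORT from 8.07 to 10.5 CPM (median 9.39) to 12.4 to 18 (median 16.1), and ran from 12.1 to 15.5 and from 9.56 to 13.1 in the chronic arm. Its difference was -1.02 ± 0.17 (0.000127), and 31.9% of its 50-base stretches occur in another gene.

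Fnip2, a partner of folliculin, and the kinase gene Taok3 fell with acute CORT by 1.04 ± 0.18 and 0.60 ± 0.13, with differences of 1.11 ± 0.26 and 0.89 ± 0.18. The histone demethylase gene Phf8 and the glycosyltransferase gene Gcnt4 rose with acute CORT by 1.10 ± 0.17 and 0.84 ± 0.16, with differences of -0.90 ± 0.24 and -1.01 ± 0.23 (adjusted p = 0.015 and 0.00481). Mrps2, a mitochondrial ribosome subunit, had a difference of -0.41 ± 0.10. For Shroom3 and Rnf144b the call was lost without mice 13 to 15 (0.0621 and 0.148) and for Pqlc1 without mice 10 to 12 (0.147). The calls of Rab17 and Grb2 were lost in 6 and 19 of 36 alternatives. In all, 24 of the 32 lost genes kept their class without mice 10 to 12, and 16 without mice 13 to 15.

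Reversed genes were few, and 8 of the 9 fell with acute and rose with chronic CORT. They are all named here and were chosen after their values were seen. Acot4, a peroxisomal acyl-CoA thioesterase (chromosome 12, 84038379 to 84048601), ran from 30.4 to 34.8 CPM in acute vehicle (median 32.5) and from 11.3 to 30.1 in acute CORT mice (median 15.7). In the chronic arm it ran from 19.1 to 60 (median 26.6) and from 57.5 to 121 (median 83.8). The acute groups were apart, and in the chronic arm vehicle mouse 11 overlapped with the CORT mice. The effects were -0.84 ± 0.23 and 1.45 ± 0.22, and the difference was 2.29 ± 0.32 (adjusted p = 1.03e-05).

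Acot4 and Acot1 lie on the same strand of chromosome 12 and both rose with chronic CORT, while the acute effect of Acot1 was 0.23 ± 0.33. The stretches before their starts, from the same RefSeq table, are shown because the acute effect was called for Acot4 and not for Acot1. The difference between their acute effects was not tested. Capitals mark AGAACA (one arm of the glucocorticoid response element), CACGTG (an E-box), CCAAT and TATAAA on either strand, which may overlap one another. The shares of all 32851 RefSeq windows of 250 bases with a match are 16.1, 6.02, 33.8 and 12.4%. The windows are chr12:84009252-84009489 for Acot1 and chr12:84038129-84038378 for Acot4, both on the plus strand.
Acot1: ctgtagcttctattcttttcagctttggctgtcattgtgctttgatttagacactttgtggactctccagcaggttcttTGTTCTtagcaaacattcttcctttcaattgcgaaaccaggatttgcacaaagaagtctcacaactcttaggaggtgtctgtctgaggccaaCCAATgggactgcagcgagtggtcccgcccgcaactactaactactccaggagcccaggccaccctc
Acot4: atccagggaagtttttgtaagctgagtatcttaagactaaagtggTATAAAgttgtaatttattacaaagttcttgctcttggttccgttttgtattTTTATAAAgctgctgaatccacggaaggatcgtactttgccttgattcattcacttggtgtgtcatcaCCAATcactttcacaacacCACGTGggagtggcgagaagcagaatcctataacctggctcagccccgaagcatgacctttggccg
Acot1 holds an AGAACA and a CCAAT match, and Acot4 holds an E-box, a CCAAT match and TATAAA matches, which is a description of these letters only. Of the 85 windows of the 65 named genes that have one, 8 hold AGAACA (9.41%).

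AC154912.1 had the smallest p among the reversed genes, with effects of -1.31 ± 0.33 and 2.35 ± 0.33 and a difference of 3.66 ± 0.47 (adjusted p = 2.36e-06). It lies on the plus strand of chromosome 17 from 28446500 to 28456457, inside Fkbp5, which spans 28399094 to 28517527 on the minus strand. In the chronic arm it rose with Fkbp5, from 0.34 to 2.2 CPM in vehicle to 3.84 to 6.82 in CORT mice, while in the acute arm it ran from 1.7 to 4.13 and 0.584 to 2.27 as Fkbp5 rose. The strand setting of the counting is not given, so its reads cannot be told apart from those of Fkbp5.

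Sh3yl1, which encodes a phosphoinositide-binding protein, had effects of -0.87 ± 0.16 and 0.51 ± 0.16 (difference 1.38 ± 0.23, adjusted p = 0.000111). The telomere-binding gene Terf1, Vwce, the ephrin receptor gene Epha1 and the kinase gene Dapk2 had acute effects of -0.39 to -0.66 and chronic effects of 0.33 to 0.54. Chil3, a chitinase-like protein gene, held only 56 and 6 counts in the acute groups and 12 and 72 in the chronic groups. Zfand4, a zinc finger gene, was the one that rose with acute (0.50 ± 0.13) and fell with chronic CORT (-0.40 ± 0.13). The differences of all 9 were called in each of the 36 alternatives, all at an adjusted p under 0.05. But the class rests on 3 calls at once, and at an adjusted p under 0.01 it held 0 genes. Without mice 10 to 12, 8 of the 9 stayed in it (Chil3 did not), and without mice 13 to 15, 4 did (AC154912.1, Acot4, Vwce and Chil3).

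In the 70 genes whose difference was called while neither effect was, the opposite leans were modest, with median sizes of 0.32 acute and 0.23 chronic. Prlr, the prolactin receptor gene, had effects of -0.58 ± 0.19 and 0.52 ± 0.19 (difference 1.10 ± 0.27, adjusted p = 0.0103), lost without mice 13 to 15 (0.0814). Tlr5, a flagellin receptor gene, had effects of 0.73 ± 0.23 and -0.61 ± 0.25 (difference -1.34 ± 0.34, 0.0132), lost likewise (0.0675). Prdm10, a transcription factor gene, had a difference of 0.92 ± 0.24 (0.0135), called in every alternative. The calls of Igfbp3, Ugt2b38 and Zbtb42 were lost in 7, 8 and 17 of 36 alternatives.

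The 69 genes shared by both durations had median effect sizes of 0.70 acute and 0.68 chronic, and 54 rose and 15 fell at both. Near-equal sizes follow from the rule of this class, which takes only genes without a called difference. Plin5, a lipid droplet coat protein gene, ran from 25.9 to 54.5 CPM in acute vehicle and from 72.7 to 113 in acute CORT mice, and from 26.8 to 76.7 and 59.7 to 118 in the chronic arm, where vehicle mouse 11 overlapped. Its effects were 1.43 ± 0.20 and 1.06 ± 0.20 (difference -0.36 ± 0.28, adjusted p = 0.491). Shld2, a DNA repair gene, and Pole4, a DNA polymerase subunit gene, rose by 0.99 ± 0.13 and 0.70 ± 0.09 acutely and by 0.89 ± 0.13 and 0.78 ± 0.09 chronically. Sult1d1 rose by 0.89 ± 0.18 and 1.24 ± 0.18. Dcun1d3, Megf9 and Atl2 rose by 0.49 to 0.76 in both arms. A difference that was not called does not show that the effects are equal.

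Several lists held no called difference, and their chronic counts are to be read against 11% risen and 9.99% fallen of all genes. These were gluconeogenesis (15 tested, 4 chronic rises), fatty acid synthesis (18, 5 chronic falls), lipid droplet genes (16), targets of NF-kappaB (16, 5 chronic falls), the unfolded protein response (20) and mitochondrially encoded genes (13). Without mice 10 to 12, 4 fatty acid synthesis genes were called below 0, 2 gluconeogenesis genes above and 1 below, and 1 gene each of the lipid droplet, NF-kappaB and unfolded protein lists above. Without mice 13 to 15, 5 unfolded protein response genes were called below 0, and their chronic falls went from 2 to 11. Fatty acid synthesis turned direction with these mice. It had 8 chronic falls and a median chronic effect of -0.73 without mice 10 to 12, but no fall, 1 rise and a median of 0.23 without mice 13 to 15, against -0.29 with all mice. NF-kappaB targets had 1 chronic fall and 1 rise without mice 10 to 12 and 2 falls without mice 13 to 15, and gluconeogenesis had 7 rises and 2 falls without mice 10 to 12. Insulin signalling and glycogen genes had 1 of 16 called, Ppp1r3g, below 0. That list had none called without mice 10 to 12, and 1 above and 2 below without mice 13 to 15. No sinusoidal endothelial, stellate, cholangiocyte, erythroid, neutrophil or pericentral hepatocyte marker had a called difference. Of these, 1 erythroid marker was called below and 1 pericentral marker above 0 without mice 10 to 12, and without mice 13 to 15, 1 pericentral marker was called below.

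**Figure D4:**
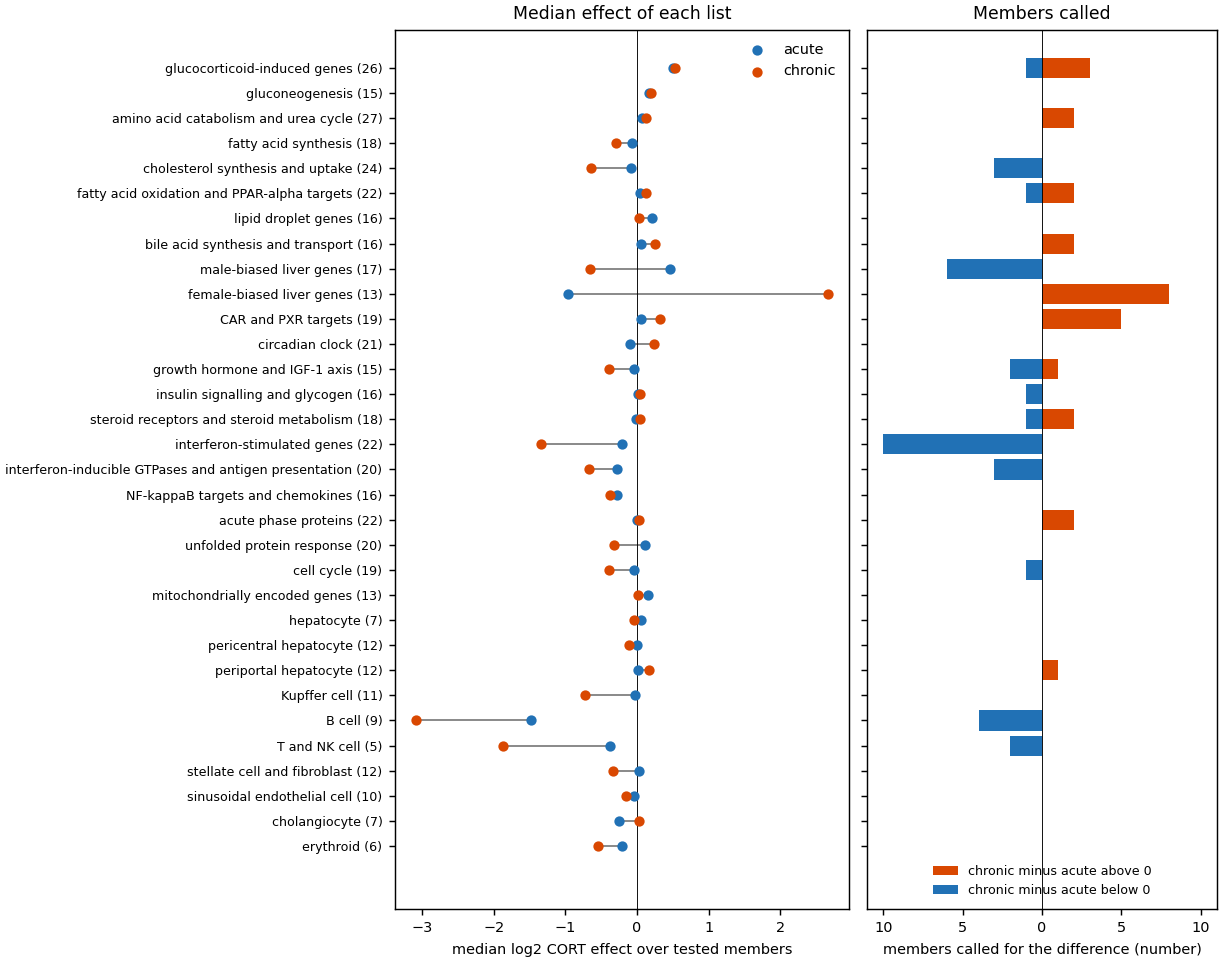
Left, median log2 CORT effect over the tested members of each list (number in brackets) with at least 5 of them, in the acute (blue) and chronic (orange) arm. Right, number of members whose chronic effect was called above (orange) or below (blue) the acute one. Female-biased genes had 8 members above and interferon-stimulated genes 10 below.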

How the data were processed

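The authors deposited a table of raw counts for each arm, made with STAR 2.7.3a and HTSeq 0.12.4 on mm10 after FastQC and MultiQC, per the submitters' processing notes. The annotation release is not given in the sources used here, nor is the strand setting. Coordinates are those of the GENCODE M21 annotation (GRCm38). Each table holds 55573 gene IDs, and 5 summary lines were left out. Genes passing filterByExpr (minimum count 10, total 15) were scaled by TMM in edgeR 4.0.16 (R 4.3.3) and fitted with a robust quasi-likelihood model of the 7 groups of all 42 libraries, which then share 1 estimate of the spread. The contrast was (chronic CORT - chronic vehicle) - (acute CORT - acute vehicle), with Benjamini-Hochberg adjustment over 14138 genes. Values after ± are standard errors. CPM were scaled by TMM within each arm. The labels do not say how mice were housed or batched, so p-values measure the spread between these mice. No pair of libraries agreed within sampling noise (chi-square per degree of freedom at least 13.5).

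Named genes were the 6 with the largest difference in each class and direction with at least 5 CPM, no predicted names and, except for opposite leans, no overlap between mice in the arms concerned (shared genes by the smaller effect), up to 3 called members per list, and 10 set genes. Members and lists were chosen with earlier results of these data known. The 22 pathway and 13 marker lists are described by counts. Alternatives were DESeq2 1.42.0, limma-voom (limma 3.58.1), other scalings, filters, fits and thresholds, each of the 24 libraries left out, and 3 chosen after seeing the data. The scripts were tested on simulated counts. A few genes that the rule or lists hold are not reported here.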

Additional observations from a re-analysis of the deposited data

Results flagged for a closer look

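The CORT effect differed between chronic and acute treatment for 873 genes by the test of the difference itself. Among these the 9 genes with called effects of opposite sign had chronic minus acute log2 differences of 3.66 for AC154912.1, 2.29 for Acot4, 1.38 for Sh3yl1, 0.82 for Terf1, 1.04 for Vwce, 5.40 for Chil3, -0.90 for Zfand4, 0.73 for Epha1 and 1.15 for Dapk2.

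Of 344 combinations of a named gene and a group of 6 mice, 40 (11.6%) held a mouse beyond Dixon's critical value. The quantity compared was the gap to the nearest other mouse divided by the range of the group, without a log scale. The chance rate of about 1 in 20 holds for normally distributed levels, which was not tested. The 11.6% therefore does not show an excess over chance. All values are CPM. In acute vehicle mouse L19A these were Megf9 at 10.9, Nr1h4 at 193, Nr1i3 at 707, Nr3c1 at 38.9, Sc5d at 316 and Vwce at 148. In L31A they were Cyp17a1 at 120, Igfbp1 at 71.1 and Pqlc1 at 58.8, and in L1A Mup15 at 373 and Per1 at 86.7. In acute CORT mouse L8A they were Mup-ps20 at 11.2, Mup15 at 357, Mup17 at 749, Myom3 at 0.788 and Nr3c1 at 80.6. Other acute CORT mice stood apart for Egr1 (11.9, L14A), Igfbp3 (32.4, L20A), Pdk4 (0.552, L26A), Sult1d1 (222, L32A) and Zfand4 (39.6, L32A).

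In chronic vehicle mouse 11 they were Acot1 at 26.5, Hsd11b1 at 705, Lbp at 90.2, Plin5 at 76.7 and Sort1 at 19.5, in mouse 15 Chil3 at 0.37, Cyp2b10 at 1.48 and Sult1e1 at 0.687 and in mouse 10 Tlr5 at 2.43. In chronic CORT mouse 1 they were Cyp4a14 at 2625, Hsd11b1 at 1081 and Sort1 at 2.36, in mouse 2 Tlr5 at 6.88 and in mouse 3 Mup-ps20 at 0.218, Mup15 at 12.7 and Mup17 at 33. Gcnt4 stood at 12.7 in mouse 25, Ighm at 13.8 in mouse 26 and Shld2 at 71.2 in mouse 27.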

How the results depend on the processing

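No named difference that was called changed direction under any alternative, and 43 of 73 were called in all 36. Other scalings left every count of calls within 1.5 times. DESeq2 called 359 acute effects, 60 lost, 15 reversed, 20 enlarged and 108 shared genes. Limma-voom with quality weights called 1650 differences and 425 acute effects, with 1365 gained, 78 lost, 29 reversed, 26 enlarged, 152 opposite-lean and 130 shared genes. Without a low-count filter, with more genes tested, there were 509 differences and 133 acute effects, with 442 gained, 15 lost, 2 reversed, 4 enlarged and 46 opposite-lean genes. A fit of the 4 groups alone gave 20 lost and 5 reversed genes, arms fitted alone 141 opposite-lean genes, and leaving out acute mice L19A and L36A 49 lost genes. At an adjusted p under 0.01 there were 330 differences, 88 acute and 1593 chronic effects, with 282 gained, 11 lost, 0 reversed, 2 enlarged, 35 opposite-lean and 26 shared genes. Without chronic vehicle mice 10 to 12 there were 20 enlarged and 129 opposite-lean genes, and without mice 13 to 15 there were 1887 chronic effects and 7 enlarged genes.

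Leaving out 1 mouse at a time gave 659 to 1104 differences, 125 to 336 acute and 2326 to 3376 chronic effects, with 541 to 955 gained, 18 to 52 lost, 2 to 16 reversed, 5 to 15 enlarged, 0 to 1 reduced, 42 to 93 opposite-lean and 47 to 106 shared genes. Acute effects moved by over 1.5 times without L7A (336), L25A (136), L8A (125) or L32A (128), lost genes without L7A (52), L8A (21) or L32A (18), and shared genes without L7A (106). Opposite-lean genes did so without L1A (42). Reversed genes did so without L14A (16), L1A (4), L25A (3), L31A (5), L8A (2), L20A (5), L26A (3), L32A (2) or chronic CORT mouse 27 (5). Enlarged genes did so without L13A (7), L19A (8), L25A (5), L20A (6), L26A (6), L32A (5) or chronic vehicle mouse 13 (8). The cause was not tested. Low depth limits genes with few counts, such as Chil3. The mice of different groups share no replicate number. Acute labels run in sets of 6 consecutive numbers with 1 mouse of each group, which the labels do not call batches, and chronic labels form no such sets. The deviations of vehicle and CORT mice of 1 acute set correlated at 0.0021 to 0.115 over genes, not every mouse correlated best with its own set, and the sets were not treated as pairs. With the acute sets as a replicate block, chosen after seeing the data, 886 differences were called, 821 of them among the 873, with 260 acute effects, 1 reduced gene and Pdk4 no longer called (0.0618).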
